A study of Mus musculus with 12 samples.

Results

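Germinal centre B cells of control mice were compared between day 7 and day 12 after immunisation with NP-KLH, a hapten on a carrier protein, in alum. The 4 libraries compared, out of 12 in the series, were chosen by their labels as the germinal centre pools without a gene deletion. The day 7 group (n = 2 pools) came from mice that carried a cre transgene and no floxed allele, and served as the controls of a Moz (Kat6a) deletion. The day 12 group (n = 2 pools) came from mice with both Myb alleles floxed and no cre, and served as the controls of a c-Myb deletion. All mice were on the C57BL/6 background. Day is therefore confounded with strain, with the presence of cre, with the floxed Myb alleles, with the experiment and with its dates, and none of these can be told apart here. Every difference below is one between these 2 sets of pools, and "higher on day 7" names the set and not time as its source.

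Each library was a pool of mice. Day 7 pool 1 held 5 males and 1 female and was made on 18 July, and day 7 pool 2 held 5 mice listed as males and carries dates of 5 March and 19 April. Day 12 pool 1 held 1 male and 2 females and was made on 15 August, and day 12 pool 2 held 2 females and was made on 9 May. The labels say that the cells were sorted as germinal centre B cells, and the sources used here do not give the gate. The same comparison was made in further pools: Moz fl/fl pools with the same cre on day 7 (n = 2) and Myb fl/fl CD23-cre pools on day 12 (n = 2), which share no library with the controls but were made on the same dates and are not independent of them (deviations of same-numbered pools correlated at 0.36 on day 7 and 0.60 on day 12). Control plasmablasts sorted after a boost (n = 2 pools of floxed Myb mice without cre) served as a reference level.

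A germinal centre is a short-lived structure in which activated B cells divide, mutate their immunoglobulin genes and compete for help from T follicular helper cells. Dark zone cells, marked by Cxcr4, cycle and mutate, and light zone cells, marked by Cd83 and Cd86, test their receptors. Cells leave as memory B cells or as antibody-secreting plasma cells, a fate driven by Prdm1, Irf4 and Xbp1, which enlarge the endoplasmic reticulum to fold and secrete immunoglobulin.

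The day 7 pools held 18687202 and 24801297 counts and the day 12 pools 8825205 and 8285934, so the depth differed between the groups. Levels below are CPM, the authors' counts scaled to a common library size with TMM factors, unless a sentence says unscaled. The markers fixed for germinal centre B cells were present in all 4 pools. Markers of other cells were low: unscaled Cd3e, a T cell receptor component, reached at most 0.749 CPM, and 2 of the erythroid and platelet markers in the table and 6 of those of follicular dendritic and stromal cells, Pdpn and Col3a1 among them, had 0 counts in all 4 pools. The summed unscaled level of 20 T cell markers was 43.9 and 44.1 CPM on day 7 and 32.1 and 23.5 CPM on day 12, and that of 20 myeloid markers was 127 and 158 CPM against 150 and 121 CPM. The follicular dendritic and stromal markers summed to 247 and 217 CPM against 194 and 153 CPM, of which Cr2, a complement receptor that B cells also carry, made up 238 and 206 CPM against 184 and 143 CPM. The markers of NK and plasmacytoid dendritic cells summed to 243 and 267 CPM against 217 and 216 CPM, mostly Tcf4, which B cells also express. The part of other cells in the results was not tested. Lyz2, a myeloid lysozyme, was at 5.99 and 13.6 CPM unscaled on day 7 and at 19.0 and 2.78 CPM on day 12. The female transcript Xist was at 40.6 and 10.1 CPM on day 7 and at 501 and 279 CPM on day 12, and the Y-linked Ddx3y at 67.9 and 56.7 CPM against 10.9 and 0.322 CPM. The sexes were mixed in unequal parts, and the part of sex in any other gene was not tested.

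Of 13131 genes tested, 181 (1.38%) differed between the groups by edgeR's quasi-likelihood test at an adjusted p (Benjamini-Hochberg) under 0.05. On day 7, 142 genes (1.08%) were higher and 39 genes (0.297%) were lower. Immunoglobulin genes and segments supplied 56 of the genes higher on day 7 and none of those lower. Among the other 86 higher genes (0.668% of 12881 genes outside the immunoglobulin loci), 15 belonged to the lists of the plasma cell programme and the unfolded protein response. Of the called genes, 138 were at least 2-fold higher and 36 at least 2-fold lower on day 7. The median log2 difference was 2.31 among the higher genes and -1.83 among the lower ones, against 0.02 over all genes tested. Slc16a5, Nrg2, Car5b and Eef1akmt3 had 0 counts in both day 12 pools and were at least 5.28, 4.86, 3.98 and 3.94-fold higher on day 7 against a floor of 3 counts over the day 12 group. With these 4 at that bound the median of the higher genes was 2.28.

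All 181 called genes had pools that did not overlap, as had 19.2% of all genes in the higher and 14.9% in the lower direction. With 2 pools against 2, an exact permutation test of a single value cannot give less than 0.333, so the calls rest on the spread shared across genes and groups in the fit. They also rest on each pool: without day 12 pool 1 the test called 17 higher and 2 lower, without day 12 pool 2 it called 22 and 8, without day 7 pool 1 it called 58 and 9, and without day 7 pool 2 it called 101 and 4. Bhlha15, Cd28, Ckap4, Fkbp11, Hid1, Ighe, Ly6c2, Map7, Sdc1 and Tmem176b (higher) and Osbpl3 and Tox2 (lower) kept their call in all settings tried, pools left out included. The other 38 of the 50 called genes followed through the settings lost it without at least 1 pool, and 14 of them lost it in another setting too: Apobec1, Cd9, Creb3l2, Dnajb9, Gnaz, Iglc1, Iglc2, Lck, Nt5e, Prdm1, Rn7sk, Socs2, Trerf1 and Uchl1.

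**Figure D1:**
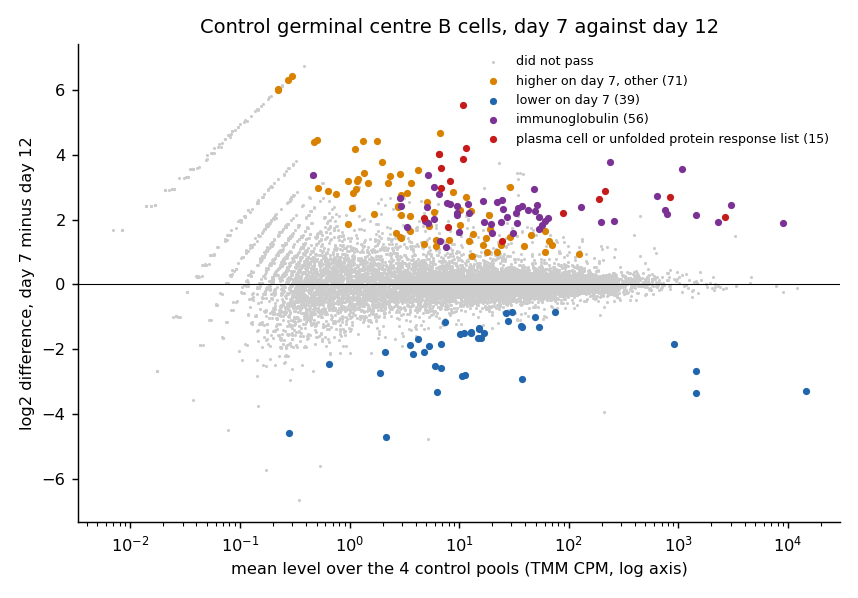
Mean level over the 4 control pools (TMM CPM, log axis) against the log2 difference between day 7 and day 12 for 13131 genes. Coloured points passed the test (142 higher, 39 lower); 56 of the higher ones are immunoglobulin genes and 15 are members of the plasma cell or unfolded protein response lists.

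Promoters of genes of the unfolded protein response carry elements read by Atf6 and Xbp1, and the promoters of Hsp90b1, Creld2 and Nucb1 are shown because these were the genes higher on day 7 that held a match to ERSE or ERSE-II. Pdia4, Dnajb9, Fkbp11 and Ckap4, which were also higher, had no such match in the windows searched and are not shown. Sequences are the 250 bases before the gene start from RefSeq on GRCm38.p6, printed 5′ to 3′ on the gene's strand. Capitals mark matches to the endoplasmic reticulum stress element ERSE (CCAAT and CCACG with any 9 bases between them) in the first 2 and to ERSE-II (ATTGG and CCACG with any 1 base between them) in the third, searched on both strands. Hsp90b1 lies at chr10:86705445-86705694 on the minus strand in this window, Creld2 at chr15:88819396-88819645 on the plus strand, and Nucb1 at chr7:45510409-45510658 on the minus strand.
Hsp90b1: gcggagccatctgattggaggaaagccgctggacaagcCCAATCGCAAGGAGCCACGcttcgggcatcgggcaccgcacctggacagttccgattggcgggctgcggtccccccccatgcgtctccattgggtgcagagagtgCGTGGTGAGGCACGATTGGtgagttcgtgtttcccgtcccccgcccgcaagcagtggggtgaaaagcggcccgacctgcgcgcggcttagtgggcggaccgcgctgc
Creld2: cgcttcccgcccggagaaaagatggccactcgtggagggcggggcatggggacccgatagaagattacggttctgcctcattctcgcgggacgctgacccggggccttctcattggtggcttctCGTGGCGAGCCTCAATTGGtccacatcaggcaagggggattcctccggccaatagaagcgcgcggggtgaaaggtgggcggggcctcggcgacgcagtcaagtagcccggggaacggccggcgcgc
Nucb1: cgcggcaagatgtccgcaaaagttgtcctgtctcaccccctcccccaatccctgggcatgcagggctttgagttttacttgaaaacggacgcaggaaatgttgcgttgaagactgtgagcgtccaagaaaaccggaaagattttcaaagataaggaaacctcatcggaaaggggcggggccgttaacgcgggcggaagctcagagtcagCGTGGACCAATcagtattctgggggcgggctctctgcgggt
The Hsp90b1 window held 1 match on the gene's strand, 212 to 194 bases before the start, and 1 on the opposite strand, 107 to 89 bases before it. The match of Creld2 was on the opposite strand at 126 to 108 bases, and that of Nucb1 on the opposite strand at 41 to 31 bases. ERSE was found in 35 of 27025 genes with a promoter in the table (0.13%) and in 2 of 68 of the genes other than immunoglobulin called higher on day 7. It was found in 8 of 17 genes of the unfolded protein response list (Calr, Canx, Creld2, Dnajc3, Hsp90b1, Hspa5, Pdia6 and Syvn1) and in 0 of 25 lower genes. ERSE-II was found in 10 of the 27025 genes and in 1 of the 68. The element TGACGTGG was found in 163 of the 27025 genes and in 1 of the 68, Isg20, an exonuclease gene. A match describes the letters of the window and not binding.

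Genes of the plasma cell programme are expressed as B cells turn into antibody-secreting cells. Of its 22 members 11 were higher on day 7, none was lower, and 21 estimates were above 0, with a median log2 difference of 1.53. The list was put together with results of these data known, so its direction is no independent evidence. Its 11 calls were 5 without day 12 pool 1 and 6 without day 12 pool 2. The mean level of each member was taken as a percent of its own mean in control plasmablasts. The median of these percentages was 5.92% on day 7 and 2.07% on day 12. A smaller number of such cells among the sorted cells and less RNA per cell cannot be told apart in bulk libraries.

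Prdm1 encodes Blimp-1, the repressor that directs plasma cell differentiation (chr10:44437174-44528558, GRCm38). Its level was 13.4 and 11.1 CPM in the day 7 pools and 3.21 and 4.03 CPM in the day 12 pools, so the pools did not overlap. The log2 difference was 1.76 (SE 0.34, adjusted p = 0.031 by edgeR's quasi-likelihood test). The call was lost without any 1 of the 4 pools, and also with limma-voom, with library size alone and in a fit of the 8 germinal centre libraries. In the knockout pools Prdm1 was at 11.9 and 20.8 CPM on day 7 and at 21.8 and 14.9 CPM on day 12, and those pools overlapped. The difference between the 2 contrasts for Prdm1 was 1.92 and did not pass in edgeR (adjusted p = 0.88 by the quasi-likelihood test), while DESeq2 (adjusted p = 0.031) and edgeR with no low-count filter (adjusted p = 0.00072) called it. The fit with no filter also called the sex-linked Xist and Ddx3y for this difference. Bhlha15 encodes Mist1, a transcription factor of secretory cells (chr5:144190286-144194441). It stood at 13.6 and 16.4 CPM on day 7 and at 1.61 and 1.69 CPM on day 12, a log2 difference of 3.18 (SE 0.26, adjusted p = 0.00089). This was the smallest p among genes outside the immunoglobulin loci. Creb3l2, a membrane-bound factor that induces secretory pathway genes, was at 9.41 and 14.6 CPM against 1.68 and 1.37 CPM (log2 difference 2.97, SE 0.56). Irf4 and Xbp1 did not pass: Irf4 was at 61.4 and 59.5 CPM against 37.4 and 34.4 CPM (log2 difference 0.75, SE 0.26), and Xbp1 at 284 and 336 CPM against 111 and 168 CPM (1.16, SE 0.30).

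Surface and secreted proteins of plasma cells followed. Fkbp11, a chaperone of the endoplasmic reticulum (chr15:98724368-98728198), had the largest difference among genes above the level set for naming. It was at 16.3 and 25.9 CPM on day 7 and at 0.698 and 0.161 CPM on day 12, where only 10 and 2 reads were counted. Its log2 difference was 5.54 (SE 0.53, adjusted p = 0.0011), on low day 12 counts. Sdc1, which encodes the plasma cell marker CD138 (chr12:8771396-8793716), was at 16.2 and 24.4 CPM against 1.68 and 1.05 CPM (log2 difference 3.88, SE 0.43). Tnfrsf17, the survival receptor BCMA, was at 7.62 and 17.1 CPM against 0.629 and 0.887 CPM (4.03, SE 0.51), and its call was lost without day 12 pool 1. Ly6c2, a surface antigen of plasma cells, was at 17.8 and 26.4 CPM against 1.05 and 1.37 CPM (4.19, SE 0.40). In each of these the lowest day 7 pool lay far above the highest day 12 pool.

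Cd28, a costimulatory receptor of T cells that plasma cells also carry, was at 10.4 and 14.9 CPM on day 7 and at 1.12 and 0.967 CPM on day 12 (log2 difference 3.59, SE 0.39). It was the 1 called gene of 18 tested T cell markers, whose median log2 difference was -0.13. Slpi, a secreted protease inhibitor, was at 389 and 360 CPM against 41.7 and 59.2 CPM (2.89, SE 0.40). Jchain, which joins IgM and IgA into polymers, was at 4206 and 4386 CPM against 770 and 1266 CPM (2.08, SE 0.38). Prg2 was also called (2.04). Outside the list, Ckap4, a membrane protein of the rough endoplasmic reticulum, was at 43.9 and 60.4 CPM against 7.05 and 5.89 CPM (3.01, SE 0.29). Hid1, a protein of secretory granule formation, was at 11.7 and 13.0 CPM against 0.419 and 1.13 CPM (4.02, SE 0.42), and Tmem176b at 14.5 and 16.4 CPM against 1.82 and 2.50 CPM (2.85, SE 0.31).

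**Figure D2:**
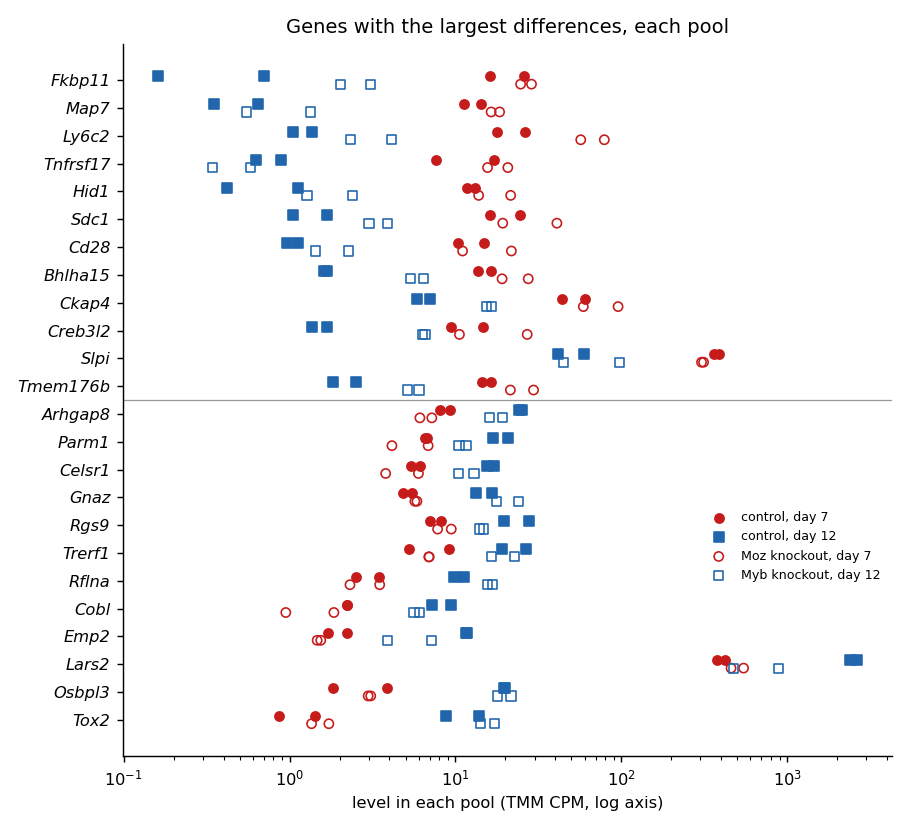
Level in each pool (TMM CPM, log axis) of the 12 genes with the largest differences in each direction, above and below the line. Filled symbols are control pools and open symbols knockout pools, circles day 7 and squares day 12; the control circles and squares of a gene do not overlap, and day 12 Lars2 is high in the control pools (2385 and 2653 CPM) and lower in the knockout pools.

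Genes that help to fold and secrete protein came next. Of 20 genes of the unfolded protein response 4 were called higher on day 7, none lower, and all 20 estimates were above 0, with a median log2 difference of 0.95. Hsp90b1, the chaperone GRP94, was at 1115 and 1763 CPM on day 7 and at 243 and 203 CPM on day 12 (log2 difference 2.69, SE 0.39). Pdia4, a disulfide isomerase, was at 237 and 411 CPM against 52.9 and 51.3 CPM (2.64, SE 0.37). Creld2 was at 113 and 181 CPM against 26.7 and 37.0 CPM (2.21, SE 0.34), and Dnajb9, a cochaperone, at 37.5 and 32.9 CPM against 11.6 and 16.4 CPM (1.33, SE 0.27). Hspa5, the main chaperone BiP, was at 662 and 969 CPM against 368 and 376 CPM and did not pass (1.13, SE 0.30). Nucb1, a calcium-binding protein outside the list, was at 84.5 and 112 CPM against 42.3 and 43.0 CPM (1.20, SE 0.25). The 4 calls of the list were 0 without day 12 pool 1 and 0 without day 12 pool 2. Of the 19 tested genes of the integrated stress response and amino acid supply none was called, with a median of -0.09.

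The genes higher on day 7 were set beside control plasmablasts. Those libraries were outside the contrast but took part in the low-count filter, the scaling and the estimate of the spread. Of the 86 genes outside the immunoglobulin loci, 77 (89.5%) had a plasmablast mean above their day 7 mean, against 45.0% of the 12881 such genes tested. In 74 the plasmablast mean was at least 2-fold, and in 58 at least 10-fold, above the day 7 mean. The 9 below it were Map7, Stat4, Uchl1, Pxdc1, Lgals9, Apobec1, Phlda3, Cmpk2 and Cd36. Pxdc1, for example, was at 68.6 and 65.5 CPM on day 7, at 25.8 and 21.1 CPM on day 12 and at 3.50 and 5.02 CPM in plasmablasts. Of 33 lower genes with a symbol, 28 (84.8%) had a plasmablast mean below their day 12 mean, against 55.6% of all such genes tested. The lower genes were chosen for a high day 12 level and the higher genes for a high day 7 level. A gene low in the germinal centre pools could also enter the test through a high plasmablast level. These shares are therefore given as a description.

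Immunoglobulin transcripts made up 7.03 and 6.06% of all counts in the day 7 pools (6.54 ± 0.686%, SD, n = 2) and 1.59 and 1.81% in the day 12 pools (1.70 ± 0.154%, SD, n = 2). Of 250 immunoglobulin genes tested 56 were higher on day 7, 48 of them among 238 segments. Among all 13131 genes tested 142 (1.08%) were higher. Of 8 tested heavy chain constant genes 6 (75.0%) were higher, with a median log2 difference of 2.22. Left out 1 at a time, the pools left 1 call of these 6 without day 12 pool 1 or pool 2 and 3 without day 7 pool 1 or pool 2.

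Ighm, the constant region of IgM, was at 14292 and 13889 CPM on day 7 and at 3555 and 3944 CPM on day 12 (log2 difference 1.91, SE 0.34). Igha, that of IgA (chr12:113256204-113260236), was at 2189 and 1781 CPM against 197 and 141 CPM and had the largest difference of the constant genes (3.55, SE 0.59). Ighe, that of IgE, was at 86.2 and 84.1 CPM against 12.3 and 9.84 CPM (2.94, SE 0.27). Ighg1, the class that interleukin 4 favours, was at 5383 and 4827 CPM against 904 and 954 CPM (2.46, SE 0.38). Ighg2b was at 981 and 1500 CPM against 218 and 284 CPM (2.31, SE 0.41), and Ighg2c at 458 and 370 CPM against 82.8 and 128 CPM (1.97, SE 0.42). Ighg3 (2.12, SE 0.50) and Igkc (1.51, SE 0.39) did not pass, and Ighd, the IgD constant region of naive cells, had an estimate of 0.02 (SE 1.11). The constant genes are similar in sequence, and the sources used here do not say how reads shared between copies were counted.

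Of the heavy chain constant counts, IgM took 59.5 ± 0.647% on day 7 and 69.3 ± 0.853% on day 12 (SD, n = 2 pools each), and the pools did not overlap. Switched classes made up 40.8 and 39.9% on day 7 and 30.6 and 29.8% on day 12. Ighg1 held 22.3 and 20.9% against 17.5 and 16.9%, and Igha 9.05 and 7.69% against 3.82 and 2.50%. The smallest exact permutation p for such a share is 0.333. Igha held 20.8 and 5.79% on day 7 and 2.04 and 2.22% on day 12 in the knockout pools.

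**Figure D3:**
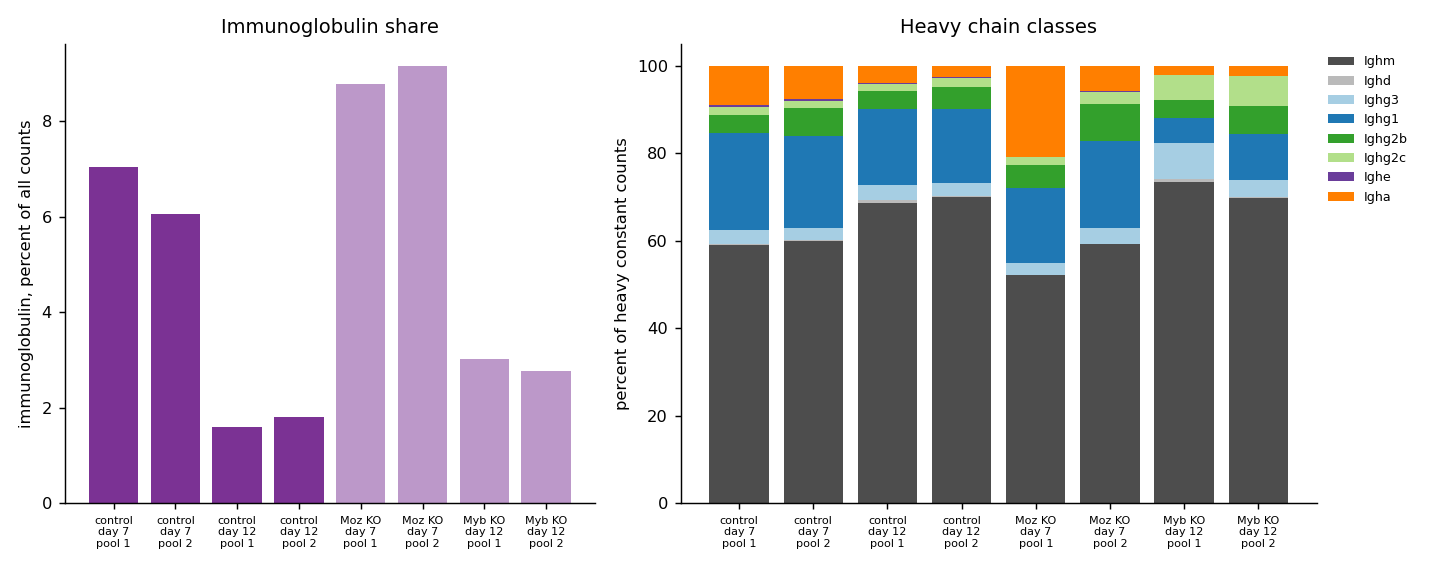
Immunoglobulin transcripts as percent of all counts (left) and heavy chain classes as percent of heavy constant counts (right), 1 bar per pool. The day 7 control pools stand at 7.03 and 6.06% on the left against 1.59 and 1.81% on day 12, and IgM fills less of the bar on day 7.

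The response to NP in C57BL/6 mice is known for the heavy segment Ighv1-72 joined to lambda light chains. Of 6 segments and constant genes tied to it 5 (83.3%) were called, against 1.38% of all genes tested. All 5 were of the lambda locus: Iglv1 (log2 difference 2.15), Iglv2 (2.73), Iglj1 (1.94), Iglc1 (1.92) and Iglc2 (2.16). Ighv1-72 was at 1.65 and 1.20 CPM on day 7 and at 0.908 and 1.13 CPM on day 12 and did not pass (0.48, SE 0.36). It held 0.0968 and 0.0769% of heavy variable counts on day 7, 89th and 80th in rank, and 0.237 and 0.275% on day 12, 72nd and 66th in rank. The most abundant heavy segment in all 4 pools was Ighv14-3, with 15.2 and 40.2% of heavy variable counts on day 7 and 7.62 and 8.53% on day 12. Its level was 260 and 627 CPM against 29.2 and 35.0 CPM (log2 difference 3.79, SE 0.46). Lambda made up 42.0 and 65.3% of light constant counts on day 7 and 43.0 and 48.3% on day 12, and these ranges overlapped. At least 10 counts were found for 109 and 107 heavy variable segments on day 7 and for 82 and 75 on day 12, where 5487 and 5088 heavy variable counts were available against 50641 and 55927.

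Lists that define the germinal centre state held no called gene. None of 24 identity genes passed (median log2 difference -0.19, 20 estimates below 0, 3 at an unadjusted p under 0.05). In the knockout pools 2 of these genes were called lower on day 7, and the list's median was -0.17. Bcl6, the repressor that sets the germinal centre state, was at 103 and 114 CPM on day 7 and at 139 and 127 CPM on day 12 (-0.29, SE 0.28). S1pr2, which keeps cells in the follicle, was at 218 and 211 CPM against 258 and 350 CPM (-0.50, SE 0.23), and the death receptor Fas at 68.6 and 70.1 CPM against 76.3 and 76.4 CPM (-0.14, SE 0.21). A p that misses the threshold does not show that these levels are alike.

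No light zone gene of 30 passed (median -0.22, 26 estimates below 0), nor any dark zone gene of 12 (median -0.05). Cxcr4 was at 175 and 141 CPM on day 7 and at 147 and 195 CPM on day 12, Cd83 at 287 and 243 CPM against 246 and 320 CPM, and Cd86 at 89.6 and 77.3 CPM against 88.0 and 104 CPM. The pools overlapped for all 3 genes. None of 40 genes of S phase (median 0.03, 25 estimates above 0) and 40 of mitosis (median 0.15, 34 estimates above 0) was called. In the knockout pools 2 and 10 of these estimates were above 0, with medians of -0.23 and -0.11. Mki67, a proliferation marker, was at 645 and 868 CPM on day 7 and at 957 and 341 CPM on day 12, so the day 12 pools enclosed those of day 7. The growth regulator Myc (-0.24, SE 0.23), the dark zone factor Foxo1 (-0.03, SE 0.19), the D cyclins Ccnd2 (0.12, SE 0.24) and Ccnd3 (-0.03, SE 0.25) and the survival gene Bcl2 (0.68, SE 0.54) did not pass. Myb (0.06, SE 0.23) and Kat6a (-0.21, SE 0.38), the genes deleted in the matching knockouts, did not pass either.

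**Figure D4:**
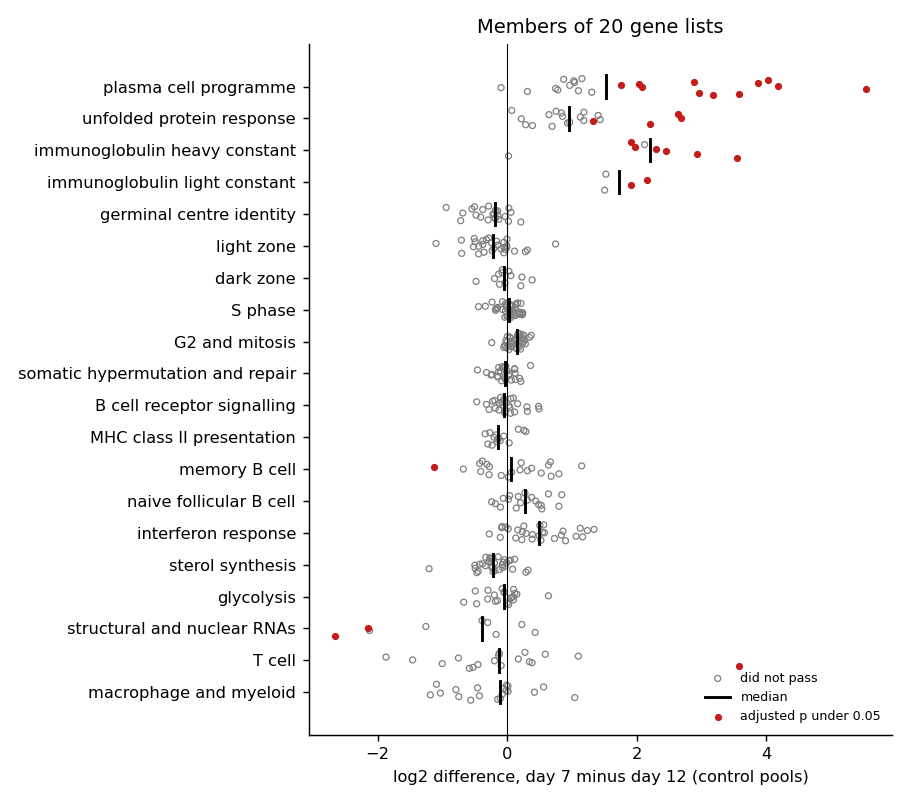
Log2 difference between day 7 and day 12 in control pools for each member of 20 gene lists. Each circle is 1 gene, red where it passed the test, and the bar is the list's median, which is 1.53 for the plasma cell programme, 0.95 for the unfolded protein response and -0.19 for germinal centre identity.

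The interleukin and type 1 lists held calls above the share of all genes (1.38%), and several were immunoglobulin genes. In the list of 23 genes tied to interleukin 4 and interleukin 21, the 4 called members (17.4%) were Ighe and Ighg1 with Il13ra1 and Socs2. Il13ra1, a receptor chain for interleukin 4 and interleukin 13, was at 1.99 and 2.40 CPM on day 7 and at 0.279 and 0.161 CPM on day 12 (log2 difference 3.25, SE 0.47), on 4 and 2 day 12 reads. Socs2, an inhibitor of cytokine signals, was at 1.05 and 1.23 CPM against 0.210 and 0.0806 CPM, on 3 and 1 day 12 reads (2.88, SE 0.59), and lost its call in 10 of 15 settings. The list's median was -0.06. In the knockout pools Ighe and Ighg1 were called too, but Il13ra1 (0.55) and Socs2 (0.28) were not. Control plasmablasts had means of 84.5 CPM for Il13ra1 and 16.6 CPM for Socs2, above those of day 7. In the type 1 list of 15 genes, Stat4, which transmits interleukin 12 signals, and Ighg2c were called (13.3%). Stat4 was at 18.1 and 21.4 CPM against 7.54 and 5.89 CPM (1.55, SE 0.24), while Tbx21, the T-bet gene, was at 5.06 and 2.23 CPM against 3.91 and 3.22 CPM (0.02, SE 0.44). In the knockout pools Stat4 was called (1.16) and Ighg2c was not (0.55). None of 29 interferon response genes passed, although 24 estimates were above 0 (median 0.50). The median of that list was -0.11 in the knockout pools.

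The 39 genes lower on day 7 were spread over many functions. Tox2, a nuclear factor known from T follicular helper cells (chr2:163203058-163324172), was at 1.42 and 0.864 CPM on day 7 and at 8.80 and 13.8 CPM on day 12 (log2 difference -3.31, SE 0.45). It was the only called member of 7 tested T follicular helper genes. Osbpl3, an oxysterol-binding protein (chr6:50293327-50456354), was at 3.85 and 1.84 CPM against 19.6 and 19.8 CPM (-2.80, SE 0.30). Emp2, an epithelial membrane protein, was at 2.23 and 1.70 CPM against 11.6 and 11.7 CPM (-2.57, SE 0.38) and had 0 counts in control plasmablasts. In these 3 genes the day 12 pools lay several-fold above both day 7 pools.

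Gnaz encodes a G protein subunit and Rgs9 a regulator of G proteins. Gnaz, at 5.50 and 4.85 CPM against 16.7 and 13.4 CPM (-1.54, SE 0.31), and Rgs9, at 8.23 and 7.02 CPM against 27.9 and 19.7 CPM (-1.64, SE 0.28), were lower on day 7. So were Cobl (-1.90), Rflna (-1.83), Trerf1 (-1.66), the cadherin Celsr1 (-1.51), Parm1 (-1.50) and Arhgap8 (-1.50). Evc and Evc2, neighbouring genes of the cilium base, were both called, Evc at 9.85 and 7.36 CPM against 23.5 and 20.5 CPM (-1.35, SE 0.25) and Evc2 at 0.607 and 0.390 CPM against 3.91 and 2.74 CPM (-2.74, SE 0.40), and both had higher levels in plasmablasts than in any germinal centre pool of the controls. Lck, a Src family kinase best known in T cells, was at 56.0 and 50.4 CPM against 86.3 and 104 CPM (-0.84, SE 0.17). Cd3e was at or below 0.749 CPM unscaled in the same pools. Nt5e, the ectonucleotidase CD73 found on memory B cells, was at 19.7 and 15.4 CPM against 40.2 and 36.8 CPM (-1.13, SE 0.22) and was the only called gene of 21 in the memory list. The Nt5e call was lost in 7 of 15 settings, with the 8 germinal centre libraries, with the 4 compared libraries, with library size alone and without any 1 pool.

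A share of counts differed between the day 12 control pools and all other germinal centre pools. Gene IDs without a symbol took 0.861 and 0.911% of counts on day 7 and 5.54 and 4.66% in the day 12 control pools, but 1.05 and 0.933% in the day 12 knockout pools made on the same dates. Lars2, a mitochondrial leucyl-tRNA synthetase gene (chr9:123366927-123462675), was at 377 and 422 CPM on day 7 and at 2385 and 2653 CPM in the day 12 control pools (log2 difference -2.66, SE 0.44). Among the knockout pools it was at 459 and 546 CPM on day 7 and at 888 and 472 CPM on day 12, which overlapped (-0.44). Rn7sk, a small nuclear RNA, was at 1.18 and 1.59 CPM against 7.61 and 4.76 CPM (-2.15, SE 0.44) and at -0.26 in the knockout pools. Lars2 and Rn7sk were the 2 called genes (22.2%) of 9 tested in the list of structural and nuclear RNAs, whose median was -0.39. Among all genes tested 1.38% were called. Of the 39 lower genes 6 had no symbol, ID 100861531 (-3.29) and ID 19791 (-3.35) among them. Neither Lars2 nor Rn7sk passed when any 1 of the 4 pools was left out. The part of RNA selection or RNA quality in other genes was not tested. With structural RNAs and IDs without a symbol left out, 144 genes were higher and 32 lower.

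The comparison was repeated in the knockout pools of the same days, which share the strains, days and dates of the controls but no library. There 214 genes (1.63%) differed, 141 higher (1.07%) and 73 lower (0.556%) on day 7. Without day 7 pool 1 these counts were 94 and 17, without day 7 pool 2 they were 31 and 8, without day 12 pool 1 they were 48 and 30, and without day 12 pool 2 they were 42 and 31. The 2 sets shared 79 higher and 16 lower genes, and 0 genes were called in opposite directions. The shared genes were 52.5% of the control calls and 44.4% of the knockout calls. Of the control calls, 138 of 142 higher and 38 of 39 lower had the same sign in the knockout pools. Over all genes tested the sign was shared by 60.7% of those with an estimate above 0 and by 65.6% of those below 0 in controls. The plasma cell programme had 9 higher genes there, with a median of 1.07, and the unfolded protein response 2, with a median of 0.90.

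The difference between the 2 contrasts was itself tested, and 0 genes passed in edgeR. At an unadjusted p under 0.05 there were 386, and DESeq2 called 14 genes with a more positive and 4 with a more negative contrast in controls. Among genes whose estimate had another sign in the knockout pools, Uchl1, a ubiquitin hydrolase, was at 6.88 and 9.50 CPM on day 7 and at 2.17 and 2.50 CPM on day 12 in controls (1.81, SE 0.32). In knockout pools it was at 3.67 and 4.96 CPM on day 7 and at 6.67 and 7.46 CPM on day 12. Cd9, a tetraspanin of marginal zone and plasma cells, was at 8.30 and 9.25 CPM against 3.91 and 2.90 CPM in controls (1.36, SE 0.24) and at 10.8 and 11.5 CPM against 16.3 and 19.6 CPM in knockouts. The difference of contrasts was 2.52 for Uchl1 and 2.04 for Cd9, and neither passed (adjusted p = 0.27 for both in edgeR's quasi-likelihood test). With no low-count filter both passed (adjusted p = 0.00053 and 0.00012 in edgeR). That setting also called the sex-linked Xist and Ddx3y. Its SE for them was 0.38 and 0.37, against 1.28 and 2.09 with the filter. These knockouts remove different genes on the 2 days, so deletion and day are confounded in them too.

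Genes close to Myb were examined because every day 12 pool carries floxed Myb alleles and no day 7 pool does. Within 10 Mb of Myb (chr10:21124930-21160984), 4 of 61 tested genes were called (6.56%), a window chosen after the values were seen, against 1.38% of all genes. Map7, a microtubule-binding protein 0.928 Mb from Myb (chr10:20148920-20281590), was at 14.2 and 11.3 CPM on day 7 and at 0.349 and 0.645 CPM on day 12 (log2 difference 4.68, SE 0.51). In the knockout pools it was at 18.5 and 16.4 CPM against 1.33 and 0.548 CPM, and in control plasmablasts, which carry floxed Myb as well, at 0.718 and 0.126 CPM. Map7 was thus at 11.3 CPM or more in all 4 pools of the Moz strain and at 1.33 CPM or less in all 4 germinal centre pools of the Myb strain.

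H60b, a ligand of the receptor NKG2D 1.14 Mb from Myb on the other side (chr10:22273474-22288849), went the opposite way. It was at 0.202 and 0.111 CPM on day 7 and at 5.17 and 3.14 CPM on day 12 (log2 difference -4.70, SE 0.64), on 6 and 4 day 7 reads, and its call was lost without day 12 pool 1. In the knockout pools it was at 0.216 and 0.216 CPM against 5.04 and 2.88 CPM. In control plasmablasts, which also carry floxed Myb, H60b was at 0.269 and 0 CPM, below the day 12 germinal centre pools. Stx11 (-1.17, SE 0.22), a syntaxin, and Ect2l (-4.59, SE 0.99) lay 8.19 and 2.97 Mb from Myb on the side of Map7, and Ect2l rested on 1 and 0 reads against 4 and 10. Myb itself was at 15.0 and 11.6 CPM against 14.0 and 11.5 CPM. Over chromosome 10 as a whole, 16 of 620 tested genes were called (2.58%). Strain and day cannot be told apart for these genes.

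**Figure D5:**
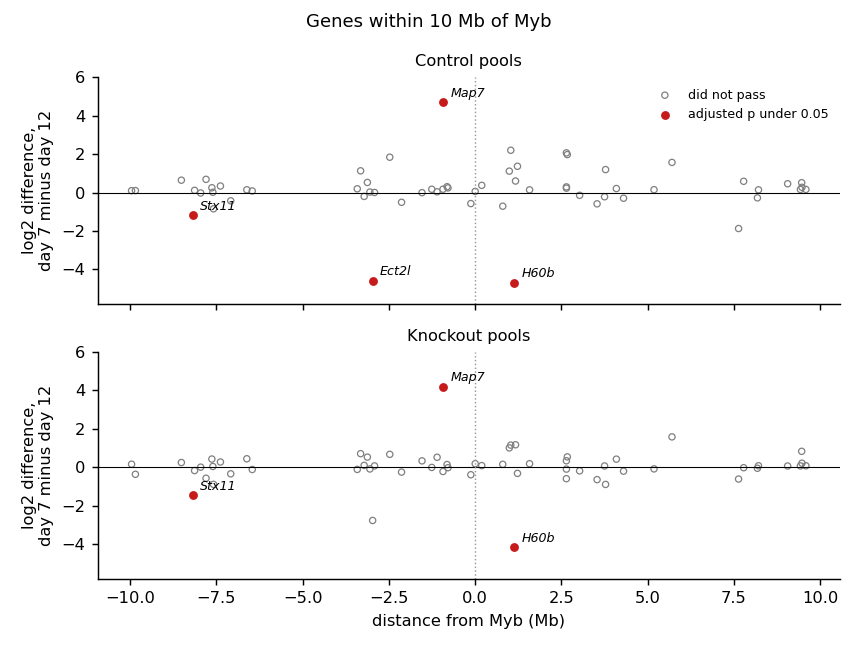
Log2 difference between day 7 and day 12 against distance from Myb for 61 genes within 10 Mb, in control pools (top) and knockout pools (bottom); red points passed the test. Map7 is higher and H60b lower on day 7 in both panels.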

How the data were processed

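The authors deposited raw counts for 27179 gene IDs in 12 libraries. Per the submitters' processing notes, reads were counted by featureCounts and the genome build was mm10. For the aligner, strand setting and handling of reads shared by genes, nothing is given in the sources used here. RefSeq (GRCm38.p6) gave symbols and coordinates for 25275 IDs. The tables of single libraries equalled the table of the series.

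One edgeR 4.0.16 fit (R 4.3.3) held all 12 libraries as 6 groups, with TMM scaling and filterByExpr (minimum count 10, total 15), and left 6 residual degrees of freedom. Differences were tested by two-sided F tests on the quasi-likelihood fit, adjusted by Benjamini-Hochberg over 13131 genes with a threshold of 0.05. SE is that of the log2 difference. The code was tested on simulated data. Alternatives used DESeq2 1.42.0, limma 3.58.1, other scalings, filters and subsets of libraries. The 2 pools of a control group differed by more than sampling of reads gives (a chi-square of 26.3 on day 12 and 40.2 on day 7 for each degree of freedom). Nothing in the labels says more of how replicates were made than separate pools and dates. The p-values rest on the spread between pools within all 6 groups, shared across genes, and not on that of the compared pools alone.

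The groups, the 50 gene lists and the naming rule were chosen with earlier results of these data known. The rule named the 12 largest differences in each direction at a mean of at least 5 CPM with no overlap (immunoglobulin, sex-linked, provisional and small structural genes left out), up to 5 called genes of each list with 2 or more calls, and a fixed set of germinal centre, immunoglobulin and sex-linked genes. Other names were chosen after their values were seen, among them Jchain, Prg2, Nucb1, Isg20, Hspa5, Xbp1, Tbx21, Ighv14-3, Uchl1, Cd9, Lck, Nt5e, Evc, Evc2, Pxdc1 and the genes near Myb. Not every gene picked by the rule is reported here.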

Additional observations from a re-analysis of the deposited data

Results flagged for a closer look

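In a fit of the 8 germinal centre libraries alone, the difference between the control and the knockout contrast passed for 2 gene IDs without a symbol. It was -3.20 on the log2 scale for ID 100861531 and -3.31 for ID 19791 (edgeR's quasi-likelihood test), meaning a lower day 7 level relative to day 12 in controls than in knockouts. ID 19791 was at 2712 and 2587 CPM in the day 12 control pools, at 274 and 285 CPM in the day 12 knockout pools and at 241 and 279 CPM in the day 7 control pools. In the fit of all 12 libraries with the low-count filter neither ID passed in edgeR (0 genes, 386 at an unadjusted p under 0.05). With DESeq2 the adjusted p was 0.00024 for ID 100861531 and 0.00052 for ID 19791, and with edgeR and no filter it was 9.4e-08 and 2.6e-10. The fit with no filter also called the sex-linked Xist and Ddx3y.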

How the results depend on the processing

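Depth, at 8285934 to 24801297 counts per pool, and 2 pools per group limit these results. None of the named genes followed through the settings changed direction. Of the 50 that passed in the fit of all libraries, 12 kept their call in every setting and 39 in at least 10 of at most 15, and 177 of the 181 calls were also made by DESeq2 and 121 by limma-voom. The number called moved more. In controls, the genes higher and lower on day 7, 142 and 39, were 295 and 63 with DESeq2, 411 and 90 with no low-count filter, 80 and 24 with the 4 compared libraries alone, 88 and 30 with the 8 germinal centre libraries, 94 and 46 with limma-voom and 71 and 34 without immunoglobulin genes. Leaving out 1 pool gave 17 to 101 higher and 2 to 9 lower. In knockouts, the genes higher, 141, were 276 with DESeq2, 403 with no filter, 83 with 8 libraries, 93 with library size alone, 87 without immunoglobulin genes and 31 to 94 with 1 pool left out; the genes lower, 73, were 123 with DESeq2, 190 with no filter and 8 to 31 with 1 pool left out. The difference of contrasts, 0 in each direction, gave 14 and 4 with DESeq2, 87 and 18 with no filter, and 0 and 2 with 8 libraries.

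Plasma cell programme members called, 11, were 18 with DESeq2 and 5 to 8 with 1 pool left out. Unfolded protein response members, 4, were 11 with DESeq2, 7 with limma-voom, 7 with library size alone, 10 with no filter and 0 to 3 with 1 pool left out. Heavy constant members, 6, were 1 to 3 with 1 pool left out. Structural RNA members, 2, were 1 with 4 libraries, 1 with library size alone, 1 without immunoglobulin genes, 4 with no filter and 0 with any pool left out. The causes were not tested. Scaling by library size alone moved the median of all genes to -0.13 in the knockout pools and -0.02 in controls.

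Same-numbered pools of day 7 and day 12 share only a number, since their dates differ; their deviations correlated at 0.382 in controls and 0.177 in knockouts. With the replicate number as a replicate block, 217 genes were higher and 64 lower in controls, 233 and 131 in knockouts, and 10 unfolded protein response members were called. Thinning the germinal centre libraries to 8285934 counts was added after the data were seen and took away the call of 3 named genes, Gnaz, Lck and Socs2.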

Other observations

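Other receptors and surface enzymes that were higher on day 7, chosen after their values were seen, also had high levels in control plasmablasts. Tigit, an inhibitory receptor, had a mean of 5.28 CPM on day 7, 0.492 CPM on day 12 and 46.0 CPM in plasmablasts (log2 difference 3.42). Entpd1, the ectonucleotidase CD39, had means of 19.9, 3.03 and 299 CPM (2.70). Cd93, a receptor of long-lived plasma cells, had means of 21.2, 4.34 and 193 CPM (2.28). Vsir, the inhibitory ligand VISTA, had means of 15.8, 4.38 and 311 CPM (1.84), and Epcam, an adhesion molecule, 4.67, 0.873 and 158 CPM (2.43).

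Of the 50 lists, 33 held no called gene, among them sterol synthesis (33 tested, median log2 difference -0.22), glycolysis (21, -0.04), B cell receptor signalling (26, -0.04), MHC class II presentation (15, -0.15), ribosome biogenesis (31, -0.03), somatic hypermutation and repair (26, -0.03) and markers of naive follicular B cells (19, 0.28). At an unadjusted p under 0.05 these 7 lists held 1, 0, 0, 0, 0, 0 and 4 genes.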
